A study of Caenorhabditis elegans with 2 samples.

Results

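The members described here are the snoRNA genes that lie wholly within the span of a protein-coding gene transcribed from the same strand, called hosted snoRNA genes below. They were taken from the Ensembl annotation of the worm genome alone, and 183 of the 346 nuclear snoRNA genes met the rule, inside 159 host genes. The data are chromatin immunoprecipitation sequencing (ChIP-seq) peak lists for T23F11.4 in late embryos of Caenorhabditis elegans. There was 1 group with 2 biological replicates. It was the strain OP709, unc-119(tm4063) with the integrated transgene wgIs709, which carries T23F11.4::TY1::EGFP::3xFLAG and unc-119(+). The animals were of both sexes and pooled, the label gives an age of 4 hours after egg bleaching, and an antibody against green fluorescent protein pulled down the tagged protein. Whole embryos of 1 transgenic line were used, in a background that carries a mutant unc-119 allele rescued by the transgene. No untagged or other group was compared.

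Small nucleolar RNAs (snoRNAs) guide the chemical modification of other RNAs. Those of the C/D type direct methylation of the ribose, and those of the H/ACA type direct the conversion of uridine to pseudouridine. In animals many are processed out of introns of a host gene, often one for a ribosomal protein or translation factor, while others have a promoter of their own. RNA polymerase III transcribes tRNA genes through promoter elements named box A and box B, and it stops at runs of T on the coding strand. These elements were therefore looked for around the hosted snoRNA genes.

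Sequences from a selection of hosted snoRNA genes are given next. Most of those printed hold both elements as a pair, which was so at only 8 of the 24 members with an optimal summit. Each runs from 100 bases before the annotated 5′ end of a snoRNA gene to base 10 of the gene, on the strand of the gene, from the RefSeq copy of assembly WBcel235 (ce11). Capitals mark each match on that strand to TGGNNNAG (called box A here) or to GTTCNANNC (called box B). The letters of both motifs were set after the sequences upstream of snoRNA genes with an optimal summit had been seen, so their counts at those genes are a description. The first 6 are members that had both boxes as a pair and an optimal summit.
C51F7.3, chrV:12303608-12303717, plus strand: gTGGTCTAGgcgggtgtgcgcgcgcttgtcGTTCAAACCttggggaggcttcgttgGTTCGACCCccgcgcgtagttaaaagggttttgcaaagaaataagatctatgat
Y43F8C.22, chrV:19643178-19643287, minus strand: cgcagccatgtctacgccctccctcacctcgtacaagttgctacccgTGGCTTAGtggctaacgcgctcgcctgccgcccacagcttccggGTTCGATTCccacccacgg
F55A11.10, chrV:11782892-11783001, plus strand: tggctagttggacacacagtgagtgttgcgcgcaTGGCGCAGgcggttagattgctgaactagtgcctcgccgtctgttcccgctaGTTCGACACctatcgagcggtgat
M106.6, chrII:10840217-10840326, plus strand: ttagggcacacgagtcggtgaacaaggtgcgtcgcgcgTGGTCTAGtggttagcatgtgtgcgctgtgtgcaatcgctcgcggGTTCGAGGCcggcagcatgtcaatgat
ZK546.18, chrII:4942510-4942619, minus strand: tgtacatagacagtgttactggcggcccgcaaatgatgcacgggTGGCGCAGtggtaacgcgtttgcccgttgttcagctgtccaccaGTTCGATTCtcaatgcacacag
T24H7.6, chrII:6248617-6248726, plus strand: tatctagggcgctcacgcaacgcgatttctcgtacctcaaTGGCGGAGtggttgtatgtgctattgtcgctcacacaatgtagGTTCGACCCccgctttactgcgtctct

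The next 3 had an optimal summit but no box pair under these letters, and include the second strongest member by signal.
ZK994.7, chrV:8500479-8500588, plus strand: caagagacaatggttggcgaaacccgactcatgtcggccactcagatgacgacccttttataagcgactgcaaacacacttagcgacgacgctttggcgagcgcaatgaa
C10C6.8, chrIV:11474182-11474291, minus strand: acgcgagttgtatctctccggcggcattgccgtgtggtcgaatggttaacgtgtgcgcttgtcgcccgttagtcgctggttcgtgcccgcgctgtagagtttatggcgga
D1046.6, chrIV:8927165-8927274, plus strand: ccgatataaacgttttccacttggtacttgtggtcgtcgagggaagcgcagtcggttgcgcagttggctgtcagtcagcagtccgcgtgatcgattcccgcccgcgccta
R166.7 had a box pair and a weak region only, and F28D1.13 lies in an intron of the ribosomal protein gene rps-23 and had no region in the pooled list.
R166.7, chrII:10545320-10545429, minus strand: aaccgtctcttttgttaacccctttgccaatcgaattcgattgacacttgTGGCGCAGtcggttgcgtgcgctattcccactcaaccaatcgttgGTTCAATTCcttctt
F28D1.13, chrIV:12390646-12390755, minus strand: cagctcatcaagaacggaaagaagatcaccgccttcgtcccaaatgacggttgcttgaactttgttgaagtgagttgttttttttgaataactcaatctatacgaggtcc
In the first 6 sequences box A started between 99 and 53 bases before the gene and box B ended close to its first base, except at C51F7.3, which holds 2 matches to box B.

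A gene was counted as carrying a summit if the summit lay within 500 bp of the gene. Of the 183 hosted snoRNA genes, 24 (13.1%, 95% Wilson interval 8.97% to 18.8%) carried a summit of the optimal set, the nuclear peaks that the authors' threshold on reproducibility between replicates retained. Windows of the same typical length laid every 100 bp along all protein-coding genes carried one in 0.55% of cases. In the authors' longer pooled list, which has no such threshold, 101 of 183 (55.2%) had a region near them and windows had one in 30.2%. The 24 genes used 23 distinct summits, since C51F7.3 and C51F7.4 lie side by side in frm-7 and share 1. The other 159 hosted genes comprised 77 with a weaker pooled region and 82 with none, and 59 members had no region in any of the 3 lists.

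The share with an optimal summit was 20.9% (34 of 163, interval 15.3% to 27.7%) among the snoRNA genes that lie between genes or inside a gene of the other strand. The odds ratio of hosted to other snoRNA genes was 0.573, and the difference did not pass the test (Fisher's exact test, two-sided, p = 0.0614, 0.123 after Benjamini-Hochberg adjustment over 2 tests). Having any pooled region differed less, at 55.2% against 58.9% (96 of 163, odds ratio 0.860, adjusted exact p = 0.515). Genes are not replicates of a condition, so these p-values describe 2 sets of genes in this one group.

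The signal value of each region is the authors' own, has a scale that differs from list to list, and is used only to rank regions within a list. Read numbers were not in the lists used, so depth is unknown. The strongest hosted snoRNA genes were C51F7.3 and C51F7.4 in frm-7, a gene for a FERM domain protein, at 853.5 in the pooled list, 266.7 in replicate 1 and 576.9 in replicate 2. That region ranked 2 of all nuclear regions when reads were pooled, 4 in replicate 1 and 1 in replicate 2. ZK994.7, in the peroxidasin gene pxn-1, followed at 677.8 pooled, 239.2 in replicate 1 and 430.7 in replicate 2. Both replicates thus placed these genes within their 10 strongest regions, ZK994.7 at ranks 9 and 6.

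Y43F8C.22, in Y43F8C.7, had values of 507.5 pooled, 202.0 in replicate 1 and 307.4 in replicate 2. C10C6.8, in the cation-transporting ATPase gene catp-8, had 436.4, 164.6 and 266.8 in the same order. D1046.6, in cfim-2, a gene of the complex that prepares mRNA 3′ ends, had 427.5, 171.4 and 250.6. These 3 kept ranks of 12 to 29 in both replicates, and the next 4 by pooled signal followed at a distance. Those were C27H6.5 in unc-41 (352.2), F55A11.10 in F55A11.6 (336.9), C05D2.15 in madf-11 (324.2) and F38E11.14 in the ion channel gene cng-3 (322.8).

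M106.6 lies in mix-1, which encodes a condensin subunit, and had 269.8 pooled, 102.1 in replicate 1 and 174.7 in replicate 2. ZK546.18 lies in the Mediator gene mdt-4 and had 243.8, 85.5 and 162.7. T08B2.13 lies in fars-1, which encodes an aminoacyl-tRNA synthetase, and had 235.3, 76.0 and 161.3. All 3 lay near the median of the 24 genes, 240.4. Y38F2AR.14 in Y38F2AR.12 (237.0) and T24H7.6 in T24H7.2 (225.0) had pooled values close to them.

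The lower ones were F11A10.9 in rbm-34 (183.3 pooled), Y37E3.20 in pcyt-2.1 (180.9), K11C4.6 in the spectrin gene unc-70 (174.6) and Y71D11A.7 in acsd-1 (155.5). They were followed by F39B2.14 in tmem-107 (142.8), F16A11.12 in ppfr-1 (131.6), Y71F9AM.7 in the Golgi complex gene cogc-3 (130.4) and R12E2.17 in the proteasome gene rpn-8 (130.0). The last member inside the optimal set was Y24D9A.9 in rpl-7A, at 124.4. Just outside it was W08G11.6 in W08G11.3, at 114.4 pooled, 39.3 in replicate 1 and 69.5 in replicate 2. The optimal set as a whole ended at 115.7. The following members outside were C14C10.8 in ril-2 (111.9), F54E7.10 in rps-12 (106.5), K02F3.15 in zip-2 (100.7) and F01D5.12 in F01D5.10 (97.1). Pooled values of members went from 124.4 to 114.4 across this edge, which the authors' threshold on reproducibility set.

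**Figure D1:**
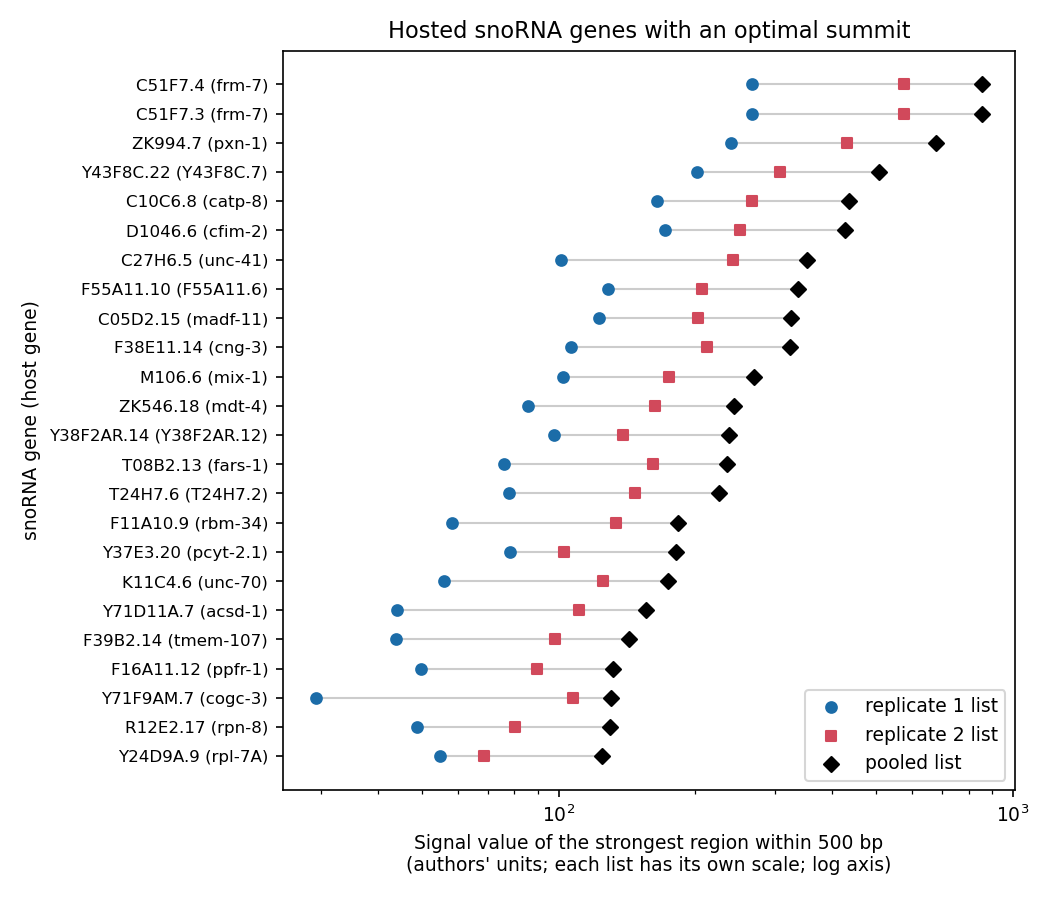
Signal value (horizontal, log axis, authors' units) of the strongest region within 500 bp of each of the 24 hosted snoRNA genes with an optimal summit, in the replicate 1, replicate 2 and pooled lists, with host genes in brackets and each line joining 1 gene's values. Pooled values run from 124.4 to 853.5, and Y71F9AM.7 is the gene whose replicate 1 value, 29.3, falls farthest to the left of the rest.

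As many of the strongest nuclear regions as the optimal set holds were then taken from each replicate list alone, and 22 hosted snoRNA genes had one in replicate 1 (windows 0.6%) and 24 in replicate 2 (windows 0.546%), with 20 in both. Of the 24 genes of the optimal set, 21 were among them in replicate 1, 23 in replicate 2 and 20 in both. The order of the genes was alike, with a Spearman correlation of 0.929 across the 24 genes, which share the same 2 libraries. Y71F9AM.7 differed most, ranking 4436 in replicate 1 (29.3) and 253 in replicate 2 (107.6). Y24D9A.9 ranked 371 (54.7) and 892 (68.4), and Y71D11A.7 ranked 757 (44.1) and 236 (110.9). F39B2.14 ranked 781 (43.8) and 312 (98.1). At these 4 genes 1 replicate ranked the region below the number of peaks in the optimal set. Summits of the replicates lay a median of 20 bp apart and at most 133 bp.

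Most summits lay just upstream of the snoRNA genes. Over the 24 genes the median summit position relative to the annotated 5′ end was -49.5 bp, where negative is upstream, 17 summits fell 1 to 100 bp upstream and 5 fell inside the gene. The remaining 2 were Y24D9A.9, whose summit lay 360 bp upstream and 78 bp from the rpl-7A start, and F16A11.12, whose summit lay 501 bp after the 5′ end. The summit shared by C51F7.3 and C51F7.4 was counted as upstream of the former and as inside the latter. The median distance from summit to host start was 1214.5 bp, close to that of the snoRNA genes themselves (1280.5 bp), since summits were sought within 500 bp of these genes. At M106.6 the mix-1 start was 16018 bp away, at K11C4.6 the unc-70 start was 7041 bp away, and at ZK994.7 the pxn-1 start was 5683 bp away. Of the 24 summits 8 lay within 1000 bp of a start of the host, and 11 within 1000 bp of a start of any protein-coding gene. The 8 were Y24D9A.9 (78 bp), F39B2.14 (22 bp), F55A11.10 (68 bp), Y71F9AM.7 (167 bp), D1046.6 (251 bp), Y37E3.20 (387 bp), R12E2.17 (638 bp) and Y43F8C.22 (794 bp). Of the 24 summits, 22 lay nearer the snoRNA gene than the host start, and the exceptions were Y24D9A.9 and F39B2.14. The search within 500 bp of the snoRNA genes favoured this. At the 8 named, which of the 2 a summit belongs to was not tested. Other snoRNA genes with an optimal summit had a median summit position of -45 bp, with the summit 1 to 100 bp upstream at 26 of 34.

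The 77 members with only a weaker region were spread more widely. Their summits had a median position of 2 bp after the 5′ end and 11 of 77 fell 1 to 100 bp upstream, and their pooled signal had a median of 52.0 (35.4 to 114.4). W08G11.6 and C14C10.8, the 2 members next below the optimal set, had summits 39 and 57 bp upstream. Regions of the optimal genes were at most 444 bp wide, a width that 15 of the 24 had, so for most a summit is the centre of a region of fixed width.

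**Figure D2:**
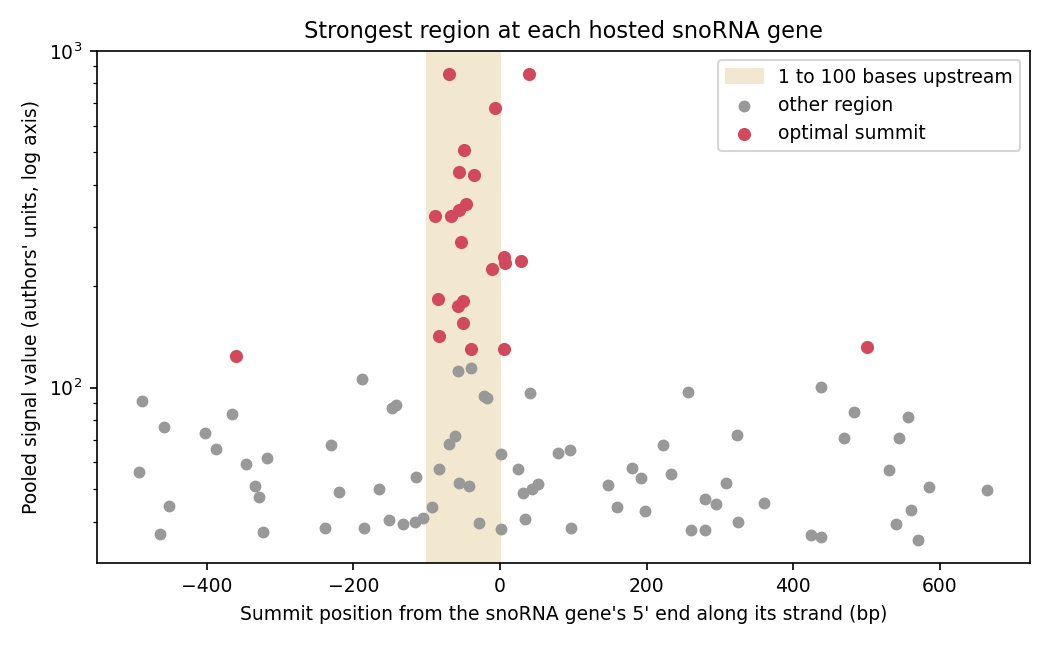
Position of the strongest pooled summit relative to the 5′ end of each of the 101 hosted snoRNA genes with a region (horizontal, bp, negative is upstream) against its pooled signal value (vertical, log axis). Optimal summits gather in the shaded stretch of 100 bp before the gene (17 of 24), and weaker regions spread over the whole span (11 of 77 in that stretch).

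Of the sequences above, the first 6 and that of R166.7 carry elements like those of tRNA genes near where the summits lay. The others printed hold neither box under these letters. A box pair was counted where box A was followed by box B on the snoRNA strand, with 20 to 80 bases between their first bases, in the 200-base window from 150 bases before the 5′ end to base 50 of the gene. A pair was present at 8 of the 24 members with an optimal summit (33.3%), at 1 of 77 with a weaker region, R166.7, and at 0 of 82 with none. Besides the 6 printed above, the 8 were C51F7.4, which holds the boxes of its neighbour C51F7.3 within its own sequence, and T08B2.13. In windows of the same length every 1000 bp along all protein-coding genes, 0.215% held a pair on the sense strand. Among the starts of 19973 protein-coding genes the share was 0.0851%, and among 612 tRNA genes, in a window of 100 bases on each side of the 5′ end, 367 of them held one. Other snoRNA genes with an optimal summit held a pair in 9 of 34 cases (26.5%). Over all optimal peaks, those near snoRNA genes and tRNA genes included, 16.1% held a pair on either strand in windows centred on the summit. Among pooled regions that overlap no optimal peak the share was 1.03%. On either strand the share of the 24 members stayed at 33.3%. A box pair was thus not particular to hosted snoRNA genes. The share at optimal peaks away from snoRNA and tRNA genes was not measured.

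Counted over genes with a pair, 9 hosted snoRNA genes had one and 8 of these had an optimal summit, at 7 distinct summits. The letters had been set after genes with an optimal summit were seen, so this count is a description and not a prediction from sequence. R166.7, in the kinase gene mnk-1, was the exception, with 38.0 in the pooled list, 25.03 in replicate 1 and 33.7 in replicate 2. The summit lay within the stretch from the first base of box A to the last base of box B, the boxes included, at 6 of the 8. In those 8 the median start was at -60.5 for box A and at -15 for box B, in bases from the 5′ end. At least 1 of the boxes was found at 53 members, of which 17 had an optimal summit (32.1%), and neither at 130, of which 7 had one (5.38%). The 7 include ZK994.7, C10C6.8 and D1046.6, so signal as strong as any but that of frm-7 occurred where these letters found no box. Among other snoRNA genes, 9 of 10 with a pair and 22 of 52 (42.3%) with at least 1 box had an optimal summit.

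What followed the gene also went with the summits. A run of 4 T within 30 bases after the gene end was present at 23 of the 24 members with an optimal summit (95.8%), at 106 of all 183 (57.9%) and at 77 of 163 other snoRNA genes (47.2%). The last share covers other snoRNA genes with and without an optimal summit. Most of those with an optimal summit also had the run, though a smaller share than among the hosted ones, so it was not particular to hosted genes. In stretches of the same length inside protein-coding genes, not matched for base composition, it was present in 32.8%. Of the 77 members without such a run 1 had an optimal summit, C51F7.4, whose summit is that of C51F7.3, and 2 had one of the strongest regions of replicate 1 alone. Having a pooled region of any signal differed less, at 62 of 106 with the run (58.5%) and 39 of 77 without (50.6%).

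Around the summits themselves, the 6-mer whose share differed most from other pooled regions was GTTCGA, the core of box B. Counting both strands within 50 bases of the summit, it was at 9 of 23 summits of hosted snoRNA genes (39.1%) and at 3.57% of 29163 pooled regions that overlap no optimal peak. At other snoRNA genes it was at 7 of 33 optimal summits (21.2%) and at tRNA genes at 62 of 148 (41.9%). CTGCGC (34.8% against 2.17%), whose reverse complement GCGCAG is found within several box A matches above, came next. It was at 18.2% of the optimal summits of other snoRNA genes and at 5.41% of the tRNA summits. GCACAC (34.8% against 4.66%), CGCGCG (30.4% against 1.28%) and CACACA (34.8% against 6.28%) followed. In the same order they were at 6.06%, 6.06% and 15.2% of the optimal summits of other snoRNA genes. At the tRNA summits they were at 5.41%, 0.676% and 4.73%. The 6-mers were picked by their shares at the hosted summits, so the large differences there were favoured by the choice. All of these are descriptions, without a test.

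Members also differed by their place in the host. Of 143 members inside an intron in every overlapping host transcript 22 had an optimal summit (15.4%), of 33 that overlap exons 2 did (C51F7.4 and F39B2.14), and of 7 that are intronic in some transcripts and exonic in others 0 did. By replicate 1 alone the exonic count was 1 and the mixed count 0, and by replicate 2 alone they were 2 and 1. The amount of intron between the 5′ splice site and the snoRNA gene, called room below, could be measured for 150. The classes of room were set after the values had been seen and carry no test. With under 40 bases of room 1 of 38 had an optimal summit (2.63%), and with 40 to under 80 bases 2 of 23 had one (8.70%). With 80 to under 200 bases 12 of 28 had one (42.9%), and with 200 or more 7 of 61 did (11.5%). By the strongest regions of replicate 1 alone the counts in these 4 classes were 2, 1, 12 and 6, and by those of replicate 2 alone 0, 2, 13 and 7, so the 2 lowest counts depend on the replicate. Among the 24, those in introns had a median room of 153.5 bases.

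The class with 80 to under 200 bases also held 6 of the 9 box pairs, and 25 of its 28 genes (89.3%) were followed by the T run, against 32 of 61 (52.5%) with less room. A pooled region of any signal was near 22 of the 28 (78.6%) and near 26 of the 61 with less room (42.6%). The 3 with an optimal summit and under 80 bases were Y24D9A.9 with 28, Y71F9AM.7 with 68 and M106.6 with 74. The first is the gene whose summit lay near its host start and the second the one with the low replicate 1 value.

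**Figure D3:**
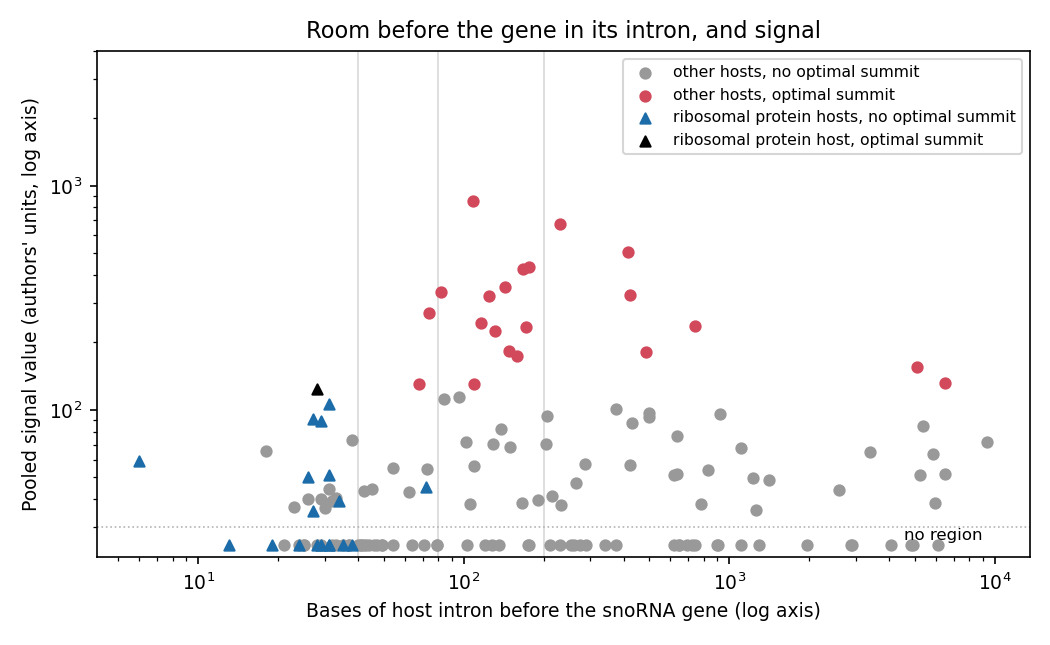
Bases of host intron before each of the 150 intronic members (horizontal, log axis) against pooled signal value (vertical, log axis), with members that have no pooled region drawn below the dotted line. Vertical lines stand at 40, 80 and 200 bases. Ribosomal protein hosts (triangles) lie at 6 to 72 bases, and 12 of the 24 optimal members lie between the lines at 80 and 200.

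Host classes were set by gene symbol alone, rpl-, rps- or rla- for ribosomal proteins and eif-, eef-, ife- or ifg- for translation factors. Any such gene under another symbol was counted among the other hosts. Hosts with a ribosomal protein symbol held 19 members in 13 genes. All 19 lay in introns, with 6 to 72 bases of room (median 29), against a median of 174 bases for intronic members in hosts with neither kind of symbol. One of the 19 had an optimal summit (5.26%), Y24D9A.9, against 23 of 160 (14.4%) in those other hosts. Among the strongest regions of 1 replicate alone, the count in ribosomal protein hosts was 2 in replicate 1 and 0 in replicate 2. Regions of any signal were near 10 of the 19 (52.6%), none with a summit 1 to 100 bp upstream of the snoRNA gene, and 9 of the 10 summits lay within 1000 bp of the host start. That last count was nearly fixed in advance. Summits were sought within 500 bp of these genes, which lay a median of 320 bp from the host start. F54E7.10 in rps-12 had the next highest signal, 106.5 pooled, 40.5 in replicate 1 and 62.0 in replicate 2, with its summit 188 bp upstream and 108 bp from the rps-12 start. No member in these hosts had a box pair. In rpl-6 the 3 members R151.11, R151.12 and R151.13 had no pooled region, and in rpl-15 both members, K11H12.12 and K11H12.13, had none in any list.

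Hosts with a translation factor symbol, eef-1G and eif-4A3, held 4 members, and 0 of these had a pooled region. The host with most members was nol-56, which encodes a core protein of C/D snoRNA particles. Its 4 snoRNA genes lay 26 to 32 bases into their introns, and 0 had an optimal summit. K07C5.10 and K07C5.18 shared a region of 40.03, K07C5.12 had one of 39.3, and K07C5.11 had none in the pooled list. Over all hosts with 2 or more members, 3 of 50 members had an optimal summit, and in hosts with 1 member 21 of 133 did (15.8%).

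At the starts of the host genes themselves, allowing 1000 bp, 25 of 159 had an optimal summit (15.7%), against 467 of 19973 protein-coding genes (2.34%). In 8 of the 25 the only such summits were those already counted at a hosted snoRNA gene, and 17 had another. Of the 8 snoRNA particle protein genes listed for this comparison, fib-1, which encodes the fibrillarin methyltransferase of C/D particles, had an optimal summit near its start (128.2, rank 482). Weaker pooled regions lay near the starts of garr-1 (79.01), snu-13 (75.1), dkc-1 (59.4), Y48A6B.3 (46.6) and nola-3 (43.8), and none lay near those of nol-56 and nol-58. Such regions are common, with one within 500 bp of 30.2% of windows inside protein-coding genes. The gene starts were searched within 1000 bp, so they differ from these windows in distance and in kind of site. The share over all protein-coding starts was not measured, so these values show no preference for snoRNA particle genes.

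By their own sequence, 7 members were C/D-like (TGATGA in the first 25 bases and CTGA in the last 25), 58 were H/ACA-like (ACA starting within the last 6 bases, without the C/D motifs) and 118 fitted neither. Optimal summits lay near 3 of 7, 10 of 58 (17.2%) and 11 of 118 (9.32%). The 3 C/D-like genes were C51F7.3, F55A11.10 and R12E2.17, all with summits 40 to 69 bp upstream. Both kinds of guide gene thus carried optimal summits, and the classes rest on short motifs in annotated ends. By chromosome, optimal summits were near 7 of 36 members on V, 6 of 28 on IV, 6 of 36 on I, 3 of 35 on II, 2 of 38 on III and 0 of 10 on X, where 7 had a pooled region. Member sequences occurred once in the nuclear genome in 182 of 183 cases, the 24 with an optimal summit included.

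**Figure D4:**
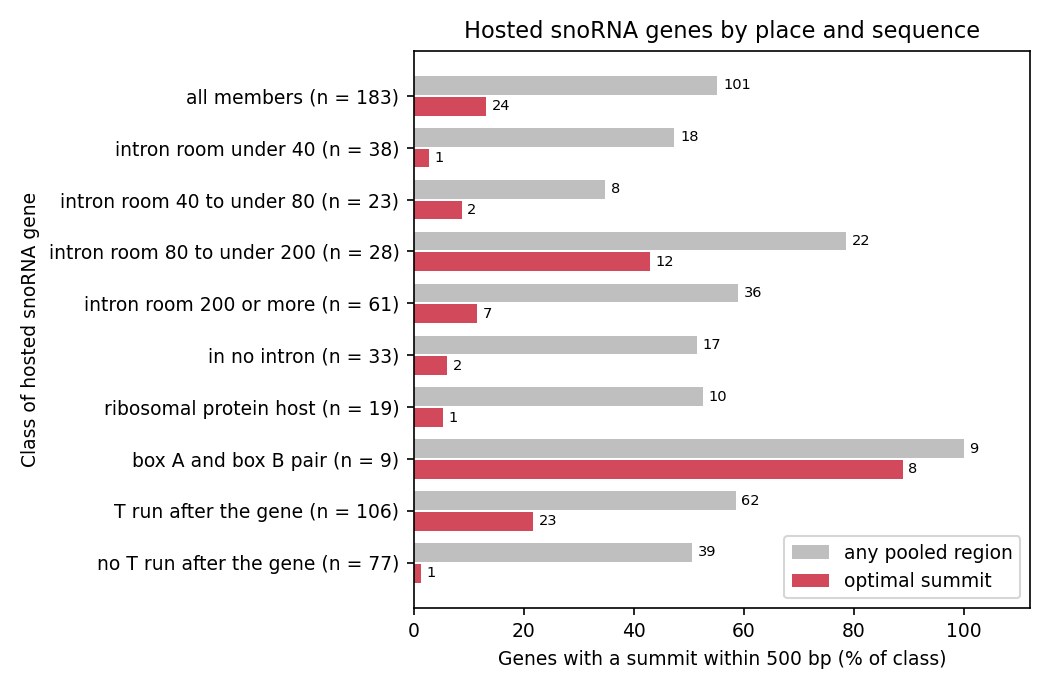
Share of hosted snoRNA genes with any pooled region (grey) or an optimal summit (red) within 500 bp, by class (vertical), with the number of genes at each bar. The optimal share is highest for the box pair class (8 of 9) and among the room classes for 80 to under 200 bases (12 of 28), and of the classes drawn it is lowest without a T run (1 of 77). The box letters were set after genes with an optimal summit had been seen, and the room classes after their values had been seen. T run means 4 T within 30 bases after the gene.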

How the data were processed

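Both biological replicates were chromatin immunoprecipitation libraries from 1 strain. Per the labels, coordinates are in ce11 and the signal values (column 7) were deposited by the authors, in a list for each replicate, a pooled list without a threshold and an optimal set. Aligner, peak caller and read depths are not given in the labels or headers used here, and the control experiment was not used here. The gene annotation came from Ensembl release 115 and the genome from RefSeq. The chromosome lengths held all regions. Regions on the mitochondrial genome were left out. For each gene the strongest region with a summit within 500 bp was taken. Fisher's exact test (two-sided) compared shares, in Python 3.11.15, pandas 2.3.3 and scipy 1.17.1, and scripts were tested on simulated data. Members and lists were chosen with earlier results of these data known. The genes named were all members with an optimal summit, the 5 strongest without one, those at the edge of the set, the 3 with the largest rank difference, their hosts and the fixed list of snoRNA particle genes. R166.7, F28D1.13, the nol-56, rpl-6 and rpl-15 members and the translation factor hosts were named after their values were seen.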

Additional observations from a re-analysis of the deposited data

How the results depend on the processing

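The share of hosted snoRNA genes with an optimal summit stayed below that of other snoRNA genes in 14 of 14 alternatives, with odds ratios of 0.528 to 0.764 and adjusted p of 0.0800 to 0.548, so none passed the test. Alternatives were other distances, the interval midpoint or overlap, only the stronger peaks of the set, 1 gene per group of neighbours, unique sequences, no coding start or tRNA gene nearby, intergenic genes only, intron hosts and, added after seeing the data, only genes classed by their boxes. Each replicate taken alone gave odds ratios of 0.538 to 0.573, the lower with an unadjusted p of 0.0400. For any pooled region the direction turned at 1000 bp (odds ratio 1.36, exact p = 0.223), and single replicates gave 0.745 to 1.03. The median summit position was -50.5 to -46 in single replicates. The median pooled signal of the 101 members, 63.5, became 57.4 with the nearest summit and 65.4 at 1000 bp. Counts by room, ribosomal protein host and box pair in single replicates, and a pair distance of 20 to 60 (8 of 9), were added after seeing the data and moved by at most 1.5 times for 3 classes of room (2 to 3 under 80 bases, 12 to 13 at 80 to under 200, 6 to 7 at 200 or more) and for the pair (8). Smaller classes moved more, from 1 to 0 and 2 under 40 bases, from 2 to 1 and 2 at 40 to under 80, and from 1 to 0 and 2 in ribosomal protein hosts. No paired analysis was possible because the series held 1 group. With 2 replicates and unknown depth, no error could be given for a single gene's signal.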
